A study of Mus musculus with 9 samples.

Results

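The 32 genes described here encode the sensors of the unfolded protein response (UPR) and the chaperones, folding enzymes, degradation factors and channel proteins of the endoplasmic reticulum (ER) that the response acts on. They were taken by symbol from a list proposed with results of the same comparison in view, so their calls are given as a description. All 32 were among the 34590 genes in the count files, and all 32 were among the 17182 genes with enough counts to be tested. The study examined mouse telencephalons, a part of the embryonic forebrain, at E12.5, a mid-gestation stage. It compared wild-type embryos (WT, 5 libraries) with Lats1/2;Nestin-Cre double-knockout embryos (dKO, 4 libraries). Lats1 and Lats2 are the Hippo pathway kinases that restrain the co-activators YAP and TAZ. A fixed volume of ERCC spike-in RNA, a set of synthetic transcripts, was added per counted cell before RNA extraction, so that counts per spike-in count stand for RNA per counted cell. All embryos were of mixed strain background, and the labels give the WT animals no floxed or Cre allele. Nestin-Cre acts in neural progenitors and their descendants, so blood, vessel and mesenchymal cells in the same suspension are not its main target. The labels speak of separate embryos but give no litter. In such bulk samples, fewer cells of a type and less RNA per cell cannot be told apart.

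Secreted and membrane proteins enter the ER through the Sec61 channel, fold there with the help of chaperones such as BiP (encoded by Hspa5), and gain disulfide bonds from protein disulfide isomerases. When unfolded protein accumulates, the sensors IRE1 (Ern1), ATF6 and PERK (Eif2ak3) respond: IRE1 splices Xbp1 mRNA, ATF6 is cleaved to a free transcription factor, and PERK slows translation while favouring ATF4. XBP1 and ATF6 raise transcription of chaperone genes through the ER stress response element (ERSE), and proteins that fail to fold are returned to the cytosol by ER-associated degradation. Gene counts hold no measure of Xbp1 splicing, ATF6 cleavage or PERK activity.

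The ERSE is shown first because it is the element that many of these genes share. It was searched as CCAAT, 9 bases of any kind and CCACG on both strands of RefSeq promoter windows (GRCm38.p6, 250 bases before to 50 bases after each start), where 26 of the 32 genes had a window. It was present in 10 of these 26 genes (38.5%) and in 37 of all 27025 genes with a window (0.137%), which is 39 of 32851 windows (0.119%). The 10 genes held 11 sites, 6 on the gene's strand and 5 on the opposite one, with the first base of the site 44 to 212 bases before the start. Each site is printed on the gene's strand with 8 bases on either side, and capitals mark the fixed letters, which read CGTGG and ATTGG where the element lies on the opposite strand.
Hspa5 (chr2:34772017-34772051, + strand): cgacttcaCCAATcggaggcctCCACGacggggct
Hsp90b1, first site (chr10:86705630-86705664, - strand): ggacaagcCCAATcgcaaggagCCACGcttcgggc
Hsp90b1, second site (chr10:86705525-86705559, - strand): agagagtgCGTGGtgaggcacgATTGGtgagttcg
Dnajc3 (chr14:118937819-118937853, + strand): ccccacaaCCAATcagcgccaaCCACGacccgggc
Creld2 (chr15:88819512-88819546, + strand): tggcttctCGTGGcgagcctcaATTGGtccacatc
Calr (chr8:84847067-84847101, - strand): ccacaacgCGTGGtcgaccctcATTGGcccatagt
Canx (chr11:50325792-50325826, - strand): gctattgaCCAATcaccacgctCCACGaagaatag
Pdia6 (chr12:17266483-17266517, + strand): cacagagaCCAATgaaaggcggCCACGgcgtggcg
Ero1lb (chr13:12565674-12565708, + strand): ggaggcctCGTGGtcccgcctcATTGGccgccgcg
Syvn1 (chr19:6046524-6046558, + strand): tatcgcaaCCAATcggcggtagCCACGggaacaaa
Derl3 (chr10:75893234-75893268, + strand): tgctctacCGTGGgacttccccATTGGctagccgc

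The Hspa5 promoter is shown at greater length because Hspa5 had the largest fold change of the 32 genes. The 250 bases before its start (GRCm38.p6, chr2:34771840-34772089, + strand) are printed with the exact match to the ERSE in capitals. Inexact matches were not searched for and are not marked.
Hspa5 upstream: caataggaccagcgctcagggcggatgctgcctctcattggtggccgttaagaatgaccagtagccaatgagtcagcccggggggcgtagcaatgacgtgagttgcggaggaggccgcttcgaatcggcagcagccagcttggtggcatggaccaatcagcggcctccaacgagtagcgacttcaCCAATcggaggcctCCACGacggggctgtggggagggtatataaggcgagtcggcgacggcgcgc

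A related shorter element, ERSE-II, was searched as ATTGG, 1 base of any kind and CCACG on both strands and was found in the windows of Herpud1 and Dnajb11 and in 12 of all windows (0.0365%). The Herpud1 site is shown because Herpud1 had the largest relative difference of the degradation genes that passed the test.
Herpud1 (chr8:94386369-94386395, + strand): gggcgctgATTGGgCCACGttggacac
TGACGTGG, searched on both strands as the letters used for the XBP1 element known as UPRE, were in none of the 26 windows and in 222 of all windows (0.676%). GGAATG, the core letters bound by the TEAD partners of YAP and TAZ, was in the windows of Ern1, Eif2ak3, Pdia6 and P4hb (15.4% of the 26) and in the windows of 16.6% of all genes, which is 14.7% of all windows. A match describes these letters only and is no evidence of binding.

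Gene counts totalled 12906561 to 45803152 per library, and gene counts per spike-in count were 58.1 ± 6.10 in WT (SD, n = 5) and 79.1 ± 5.90 in dKO (SD, n = 4), a ratio of 1.36. Among the libraries, WT 2, 3 and 4 stood apart: 39.3% to 41.3% of their reads fell in no gene, against 32.03% to 35.6% in the other 6 libraries, so results are given with and without them. Lats1 was at 125 to 136 counts per 1000000 gene counts after TMM scaling of the libraries (CPM) in WT and 58.8 to 61.3 CPM in dKO, whereas Lats2 was at 20.2 to 32.4 CPM in WT and 36.3 to 56.4 CPM in dKO. Lats2 was thus higher in dKO relative to all genes (log2 0.69, edgeR adjusted p = 0.0144), and why was not tested. Gene-level counts also cover exons that a conditional allele leaves in place, so Lats2 does not check its label. The 9 telencephalon markers reported were above 0 in both groups, summing to 2097 to 2211 CPM in WT and 2168 to 2358 CPM in dKO, with Nes higher and Emx1, Eomes, Tbr1, Dlx2 and Dcx lower in dKO relative to all genes. Markers of other cell types overlapped between groups in their summed level: mesenchyme and pericytes 875 to 1088 CPM in WT and 802 to 1121 CPM in dKO (0 of 8 passed), endothelium 207 to 268 and 209 to 269.6 CPM (Flt1 of 7 higher), choroid plexus 117 to 443 and 165 to 223 CPM (Aqp1 of 6 lower), erythroid cells 2433 to 6520 and 1936 to 3496 CPM (Hba-a1 of 6 lower), microglia 74.9 to 92.3 and 90.1 to 132 CPM (Mrc1 higher and P2ry12 lower of 7), and surface ectoderm 8.81 to 23.3 and 7.79 to 29.0 CPM (0 of 4 tested, with Krt5 at 0 in WT). Their part in the results below was not tested.

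Per counted cell, nearly the whole set was higher in the dKO telencephalon. With all libraries, most chaperones and folding enzymes also rose relative to the typical gene, by smaller folds. By counts per spike-in count, 30 of the 32 genes rose and none fell (edgeR quasi-likelihood test with p-values adjusted over all genes tested by Benjamini-Hochberg, threshold 0.05), where 61.1% of all genes tested rose and 0.698% fell. The exceptions were Ern1 and Derl3. The median log2 fold change was 0.72 for the 32 genes and 0.43 for all genes. Relative to all genes, that is after scaling each library to its own gene counts, 22 of the 32 rose and none fell, where 13.7% of all genes rose and 12% fell. The median relative log2 fold change was 0.28 for the 32 genes and -0.01 for all genes, with quartiles over all genes at -0.18 and 0.14. Since the genes were proposed from this contrast, nothing is read from the distance to those shares. In these relative data 1 gene, Ern1, was lower at an unadjusted p under 0.05 and none was lower at an adjusted p under 0.05, and DESeq2 and limma-voom also gave 0 lower calls. With WT 2, 3 and 4 left out, 4 of the 32 genes (Hspa5, Creld2, Hsp90b1 and Hyou1) rose relative to all genes, where 2.33% of all genes did, and 30 of 32 rose per spike-in count, where 48.2% did.

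**Figure D1:**
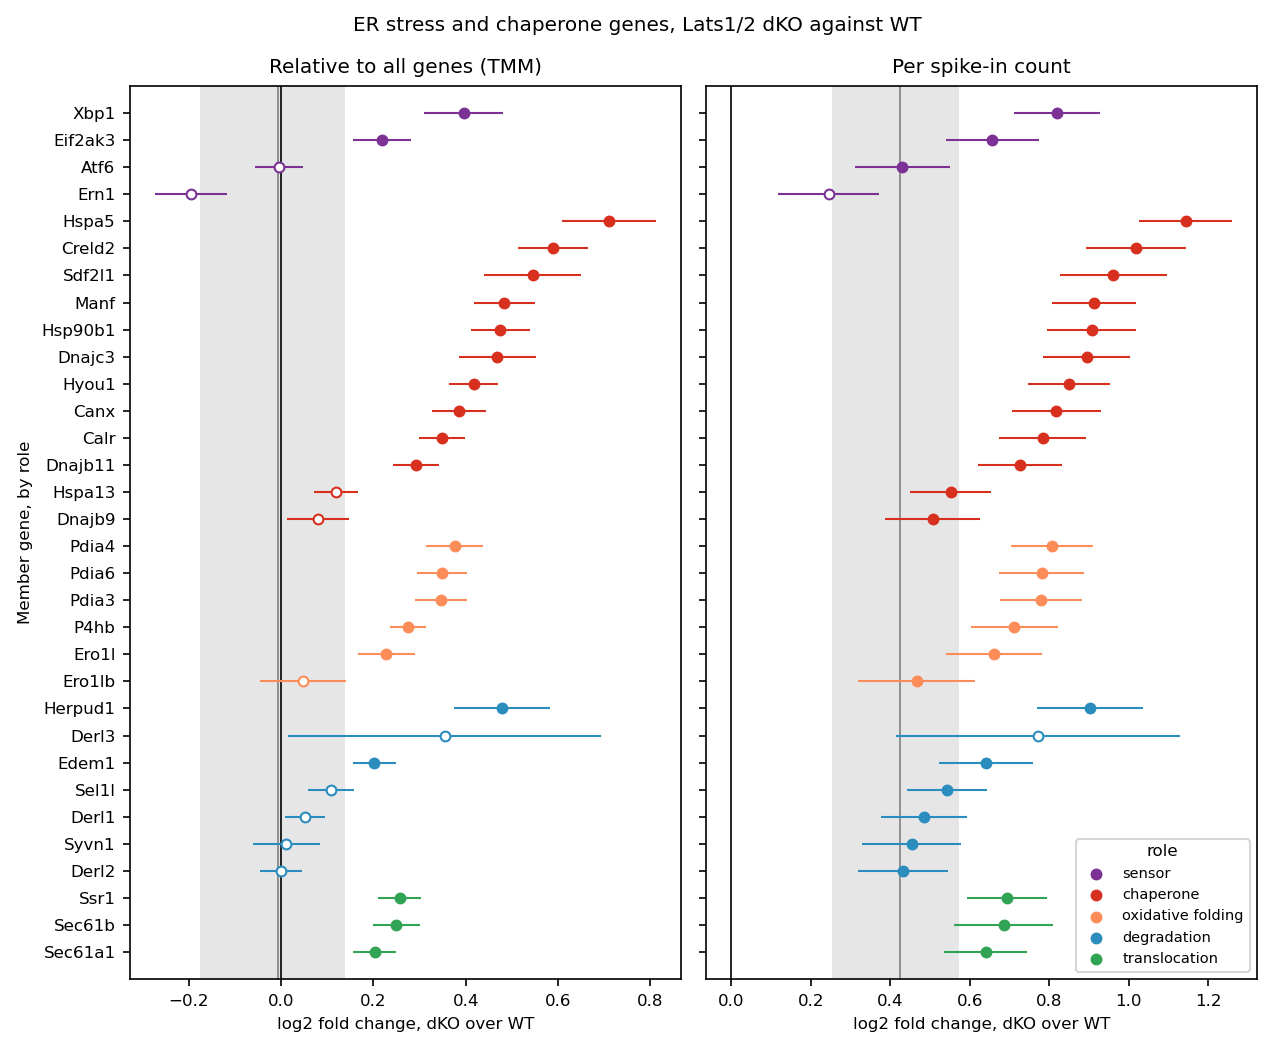
Log2 fold change of dKO over WT for each of the 32 genes, per spike-in count and relative to all genes, with bars for the standard error, colours for role and a grey band between the quartiles of all genes tested. Open circles mark genes that did not pass the test: Ern1 and Derl3 per spike-in count, and 10 genes relative to all genes.

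The transcripts of the 32 genes together made up 0.509%, 0.474%, 0.456%, 0.463% and 0.498% of gene counts in WT 1 to WT 5 and 0.657%, 0.574%, 0.611% and 0.624% in dKO 1 to dKO 4. Every dKO library was above every WT library. The group means were 0.480% ± 0.0228 (SD, n = 5) and 0.617% ± 0.0342 (SD, n = 4). Per 1000 spike-in counts the sums were 279 ± 27.7 (237 to 312) in WT and 486 ± 23.2 (467 to 520) in dKO. Most of this sum came from chaperones, at 0.265% ± 0.0145 of gene counts in WT and 0.362% ± 0.0262 in dKO, followed by the oxidative folding enzymes at 0.112% ± 0.00639 and 0.139% ± 0.00450. Sensors made up 0.0198% ± 0.000529 in WT and 0.0222% ± 0.00149 in dKO. On a scale per kilobase of merged exon, which allows genes to be compared with each other, the most abundant of the 32 in WT were Calr (179.7 CPM per kb), Hsp90b1 (132 CPM per kb), P4hb (127 CPM per kb), Canx (125 CPM per kb) and Hspa5 (110.0 CPM per kb). The lowest were Ero1lb (1.40 CPM per kb) and Derl3 (0.252 CPM per kb).

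**Figure D2:**
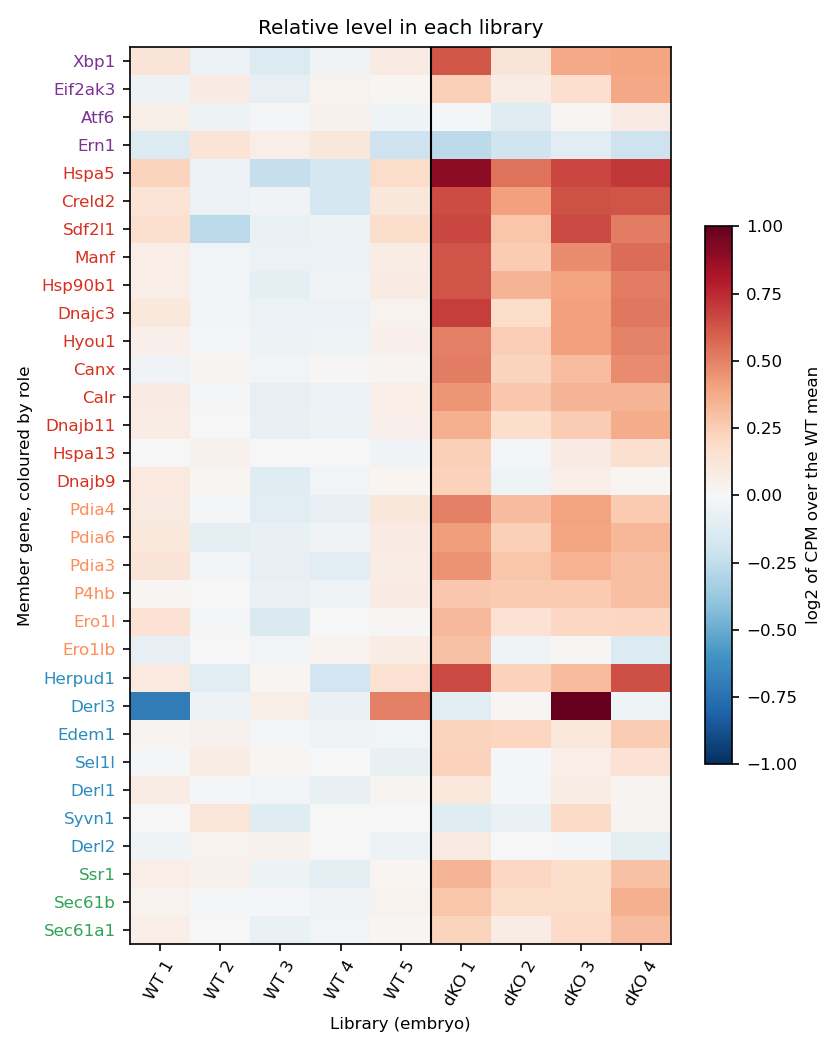
Heat map of the level of each of the 32 genes in each of the 9 libraries, as the log2 of CPM over the WT mean, with rows grouped by role and values beyond 1 in either direction shown at the limit of the scale. The dKO columns are high for most chaperones and oxidative folding enzymes, and mixed for the degradation genes.

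Of the sensors and their transcription factor XBP1, 2 of 4 rose relative to all genes, Xbp1 and Eif2ak3, with a median log2 fold change of 0.11 for the 4, which was 0.065 without dKO 4. Atf6, a membrane-bound transcription factor precursor, was at 54.4, 50.4, 51.6, 53.8 and 50.7 CPM in WT 1 to WT 5 and at 51.7, 48.0, 53.0 and 55.4 CPM in dKO 1 to dKO 4. The ranges overlapped fully, with means of 52.2 ± 1.84 and 52.0 ± 3.06 CPM. Its relative log2 fold change was -0.0046 (SE 0.05), and per spike-in count it rose 1.35-fold (log2 0.43, SE 0.12), as much as the median of all genes.

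Ern1, which encodes the kinase and RNase IRE1, was at 27.1, 32.8, 31.2, 32.2 and 25.8 CPM in WT and at 24.9, 25.9, 27.7 and 25.8 CPM in dKO. WT 2, 3 and 4 lay above all 4 dKO libraries, and WT 1 and WT 5 lay among them. Its relative log2 fold change was -0.20 (SE 0.08) and its log2 fold change per spike-in count was 0.25 (SE 0.13), and neither passed. The call for Ern1 was set by single libraries: it passed as lower relative to all genes without WT 5 (log2 -0.25, edgeR adjusted p = 0.0303), and it passed as higher per spike-in count without WT 3 (log2 0.30, edgeR adjusted p = 0.0457) and without dKO 1 (log2 0.32, edgeR adjusted p = 0.0276).

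Eif2ak3 encodes PERK, the kinase that phosphorylates the translation factor eIF2 alpha. Its level was 49.4, 54.1, 48.3, 52.4 and 51.9 CPM in WT and 60.5, 54.0, 57.4 and 66.9 CPM in dKO. Only dKO 2 overlapped the WT libraries, lying just under WT 2. The relative rise was 1.16-fold (log2 0.22, SE 0.06) and the rise per spike-in count was 1.58-fold (log2 0.66, SE 0.12). The relative call rested on single libraries, since edgeR's adjusted p was 0.0669 without WT 3, 0.0610 without dKO 1 and 0.0663 without dKO 4. Of the exon length of Eif2ak3, 8.05% overlaps Gm43292 in the GENCODE annotation.

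Xbp1, whose product drives chaperone and degradation genes after IRE1 splices its mRNA, was at 70.3, 62.0, 58.7, 63.0 and 68.4 CPM in WT and at 99.0, 70.5, 84.0 and 84.8 CPM in dKO. All dKO libraries were above all WT libraries, dKO 2 by a narrow margin over WT 1. It rose 1.32-fold relative to all genes (log2 0.40, SE 0.09) and 1.77-fold per spike-in count (log2 0.82, SE 0.11).

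Chaperones and co-chaperones held the highest fold changes of the set: 10 of 12 rose relative to all genes, with a median log2 fold change of 0.44, and 12 of 12 rose per spike-in count, with a median of 0.87. Hspa5 encodes BiP, the ER member of the HSP70 family, which also binds the UPR sensors. It was at 544, 446, 396, 412 and 528 CPM in WT and at 864, 677, 741 and 761 CPM in dKO. Per 1000 spike-in counts it was at 29.5, 22.2, 25.2, 25.1 and 33.0 in WT and at 60.5, 57.1, 58.3 and 62.7 in dKO. The groups were well apart on both scales, and within WT the libraries WT 1 and WT 5 were the highest. Hspa5 rose 1.64-fold relative to all genes (log2 0.71, SE 0.10) and 2.21-fold per spike-in count (log2 1.14, SE 0.12), and 3.27% of all genes had a larger relative log2 fold change. Without WT 2, 3 and 4 its relative log2 fold change was 0.50 and still passed.

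Creld2, an ER-resident thiol-disulfide factor, had the second highest fold change. Its level was 27.8, 24.3, 24.8, 22.4 and 27.4 CPM in WT and 39.9, 33.7, 39.4 and 39.1 CPM in dKO. The dKO libraries were all above WT, with dKO 2 below the other dKO libraries. Creld2 rose 1.5-fold relative to all genes (log2 0.59, SE 0.08) and 2.03-fold per spike-in count (log2 1.02, SE 0.13).

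**Figure D3:**
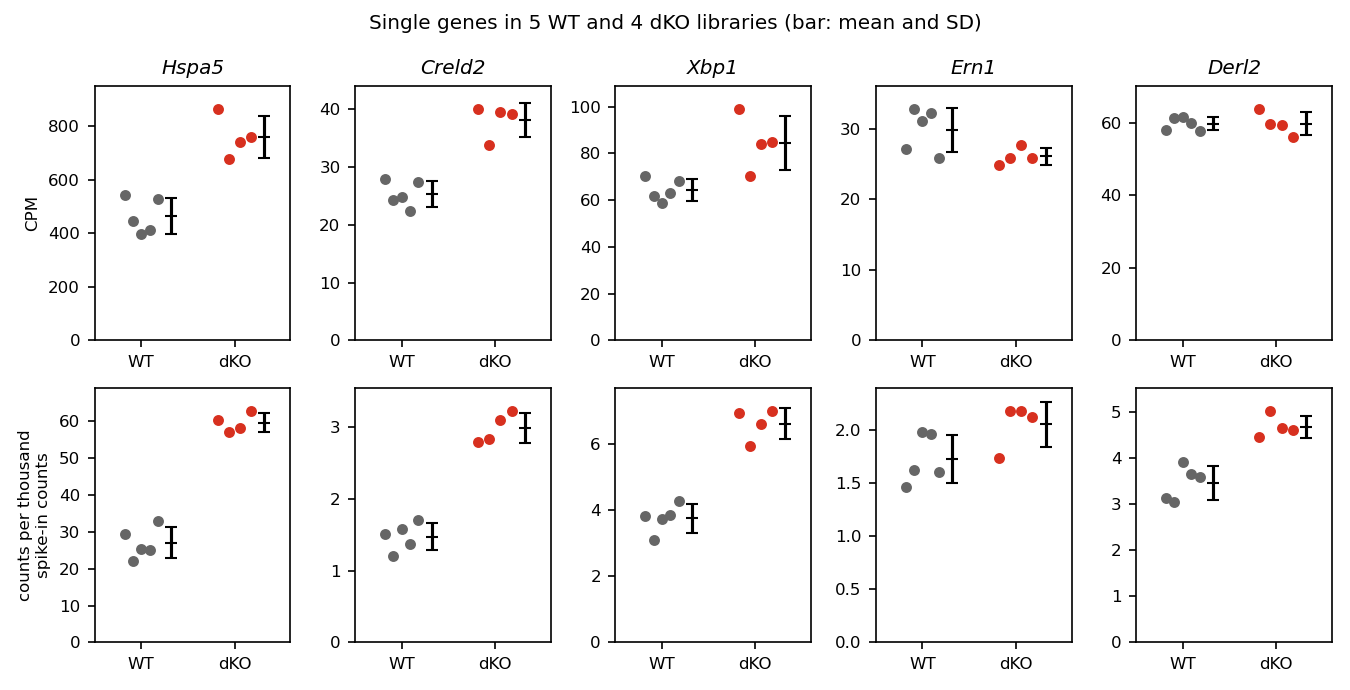
CPM (upper row) and counts per 1000 spike-in counts (lower row) of Hspa5, Creld2, Xbp1, Ern1 and Derl2 in each WT and dKO library, with the mean and SD beside the points and axes starting at 0. Hspa5, Creld2 and Xbp1 separate on both scales, whereas Ern1 and Derl2 overlap in CPM.

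Sdf2l1, a partner of BiP and its J-domain proteins, was at 16.4, 12.2, 14.1, 14.2 and 16.7 CPM in WT and at 23.4, 17.8, 23.3 and 21 CPM in dKO. The lowest dKO library, dKO 2, was just above the highest WT library. It rose 1.46-fold relative to all genes (log2 0.55, SE 0.11) and had a log2 fold change of 0.96 (SE 0.13) per spike-in count. Manf encodes a small ER protein that binds BiP and can be secreted as a neurotrophic factor. Its level was 85.6, 80.4, 78.7, 78.8 and 86.2 CPM in WT and 126, 97.6, 113 and 121 CPM in dKO. All dKO values were above all WT values, and the relative rise was 1.40-fold (log2 0.48, SE 0.07).

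Hsp90b1 encodes GRP94, the HSP90 of the ER, whose promoter holds both ERSE sites printed above. It was at 557, 522, 497, 520.1 and 563 CPM in WT and at 824, 672, 702 and 759.9 CPM in dKO. Every dKO library exceeded every WT library. Hsp90b1 rose 1.39-fold relative to all genes (log2 0.48, SE 0.06) and 1.88-fold per spike-in count (log2 0.91, SE 0.11). Of its exon length, 10.3% overlaps 1810014B01Rik on the opposite strand.

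Dnajc3 encodes P58IPK, a J-domain co-chaperone of BiP. Its values were 64.1, 58.4, 57.2, 57.0 and 60.9 CPM in WT and 95.9, 67.7, 79.3 and 85.8 CPM in dKO. The dKO libraries spread widely, from dKO 2 just above WT 1 to dKO 1 far above it. Dnajc3 rose 1.38-fold relative to all genes (log2 0.47, SE 0.08). Hyou1 encodes GRP170, a nucleotide exchange factor for BiP. It was at 186, 177, 173, 175 and 186 CPM in WT and at 254, 213, 238 and 253 CPM in dKO, with no overlap. Hyou1 rose 1.34-fold relative to all genes (log2 0.42, SE 0.05) and 1.80-fold per spike-in count (log2 0.85, SE 0.10).

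The lectin chaperones Canx (calnexin, in the membrane) and Calr (calreticulin, in the lumen) bind newly made glycoproteins. Canx was at 572, 598.5, 575, 592 and 597 CPM in WT and at 838, 686, 728 and 814 CPM in dKO. Calr was at 548, 511, 488, 498 and 543 CPM in WT and at 702, 622, 654 and 656 CPM in dKO. For both, the dKO libraries lay above WT, with dKO 1 the highest and dKO 2 the lowest of them. Canx rose 1.31-fold (log2 0.39, SE 0.06) and Calr 1.27-fold (log2 0.35, SE 0.05) relative to all genes.

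Dnajb11, the J-domain protein ERdj3, was at 72.6, 68.9, 65.7, 66.6 and 71.7 CPM in WT and at 88.5, 77.9, 82.4 and 89.5 CPM in dKO. The groups did not overlap, and the relative rise was 1.22-fold (log2 0.29, SE 0.05). Both chaperones that did not pass relative to all genes, Hspa13 and Dnajb9, overlapped between groups. Hspa13, an atypical HSP70, was at 99.3 ± 1.82 CPM in WT and 108 ± 8.12 CPM in dKO (log2 0.12, SE 0.05), and it passed as higher without dKO 2 (log2 0.16, edgeR adjusted p = 0.0161). Dnajb9, the J-domain protein ERdj4, was at 19.4 ± 1.06 and 20.4 ± 1.69 CPM (log2 0.08, SE 0.07). Per spike-in count both rose, with log2 fold changes of 0.55 (SE 0.10) and 0.51 (SE 0.12).

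Among the enzymes of oxidative folding, 5 of 6 rose relative to all genes, with a median log2 fold change of 0.31, and 6 of 6 rose per spike-in count, with a median of 0.75. Protein disulfide isomerases form and reshuffle disulfide bonds. Pdia4 (ERp72) was at 191, 178, 166, 169 and 194 CPM in WT and at 255, 223, 238 and 215 CPM in dKO. Its relative rise was 1.30-fold (log2 0.38, SE 0.06), with dKO 4 the lowest dKO library. Pdia6 (P5), which carries an ERSE, was at 316, 275, 279, 286 and 311 CPM in WT and at 392, 346, 385 and 369.6 CPM in dKO. It rose 1.27-fold relative to all genes (log2 0.35, SE 0.05), and no dKO library reached down to WT.

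Pdia3 (ERp57) works with calnexin and calreticulin on glycoproteins. Its level was 257, 230.4, 221, 217 and 247 CPM in WT and 320.2, 284, 298 and 289 CPM in dKO. It rose 1.27-fold (log2 0.35, SE 0.06), and the groups did not overlap. P4hb, the classical protein disulfide isomerase, was at 368, 362, 346, 353 and 385 CPM in WT and at 438, 435, 435 and 448 CPM in dKO. Its dKO libraries agreed closely (SD 6.17 CPM), and it rose 1.21-fold relative to all genes (log2 0.27, SE 0.04).

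Oxidizing power reaches these isomerases from the ER oxidases Ero1l (ERO1 alpha) and Ero1lb (ERO1 beta). Ero1l was at 41.6, 37.2, 34.0, 37.7 and 37.9 CPM in WT and at 47.1, 41.7, 43.5 and 43.7 CPM in dKO. The lowest dKO library, dKO 2, was only just above the highest WT library, WT 1. It rose 1.17-fold relative to all genes (log2 0.23, SE 0.06), and without dKO 1 this did not pass (log2 0.19, edgeR adjusted p = 0.0566). Ero1lb overlapped between groups at 9.30 ± 0.391 CPM in WT and 9.58 ± 1.25 CPM in dKO (log2 0.05, SE 0.09), although its promoter holds an ERSE.

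Of the degradation genes, 2 of 7 rose relative to all genes, Herpud1 and Edem1, with a median log2 fold change of 0.11, which was 0.049 without dKO 3 and 0.066 without dKO 1. Per spike-in count 6 of 7 rose, with a median of 0.54. Herpud1, a membrane protein of the HRD1 ubiquitin ligase complex, was at 28.4, 24.7, 26.9, 23.3 and 29.6 CPM in WT and at 42.1, 31.1, 33.1 and 41.6 CPM in dKO. Each dKO library was above each WT library, with dKO 1 and dKO 4 the highest. It rose 1.39-fold relative to all genes (log2 0.48, SE 0.10). Edem1, a lectin that directs misfolded glycoproteins to degradation, was at 46.9, 47.5, 45.5, 44.9 and 45.0 CPM in WT and at 53.7, 53.5, 49.4 and 54.9 CPM in dKO. It rose 1.15-fold (log2 0.20, SE 0.05), with dKO 3 nearest to WT.

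Core members of the same ligase complex, Sel1l and Syvn1, did not pass relative to all genes with all 9 libraries. Sel1l, its scaffold, was at 153 ± 5.65 CPM in WT and 165 ± 11.9 CPM in dKO (log2 0.11, SE 0.05), and it passed as higher without dKO 2 (log2 0.15, edgeR adjusted p = 0.0360). Syvn1, the ligase HRD1 itself, was at 22.2 to 26.3 CPM in WT and 22.2 to 27.6 CPM in dKO (log2 0.01, SE 0.07). The derlins, which help to pull substrates out of the membrane, overlapped as well. Derl1 had a relative log2 fold change of 0.05 (SE 0.04), and Derl2 was at 59.7 ± 1.74 and 59.7 ± 3.17 CPM (log2 0.00, SE 0.05). Derl3 was near the limit of detection, with as few as 4 counts in a library and 0.252 CPM per kb in WT. It was at 0.306 to 0.717 CPM in WT and at 0.466, 0.506, 1.17 and 0.488 CPM in dKO, so dKO 3 alone lay above WT (relative log2 0.35, SE 0.34). Without dKO 3 its relative log2 fold change was -0.10. Per spike-in count Derl3 had a log2 fold change of 0.77 (SE 0.36), which did not pass (edgeR adjusted p = 0.0599), and it passed without WT 5 (log2 0.97, edgeR adjusted p = 0.0248), without dKO 1 (log2 0.99, edgeR adjusted p = 0.0210) and without dKO 4 (log2 0.85, edgeR adjusted p = 0.0423).

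All 3 translocation genes rose on both scales, with a median log2 fold change of 0.25 relative to all genes and 0.69 per spike-in count. Sec61a1, the pore subunit of the channel, was at 215, 206, 196, 202 and 208.5 CPM in WT and at 239.6, 216.5, 235 and 255 CPM in dKO. Library dKO 2 was only just above WT 1. The relative rise was 1.15-fold (log2 0.20, SE 0.05), and 8.16% of the exon length of Sec61a1 overlaps Gm44170. Sec61b, a small channel subunit, was at 36.5, 35.2, 35.3, 34.8 and 36.6 CPM in WT and at 43.2, 40.5, 40.5 and 45.7 CPM in dKO. It rose 1.19-fold (log2 0.25, SE 0.05), with a clear gap between the groups. Ssr1, a subunit of the translocon-associated TRAP complex, was at 220.4, 217, 203, 198 and 214 CPM in WT and at 267, 243, 238 and 258 CPM in dKO. Its relative rise was 1.19-fold (log2 0.26, SE 0.05), again without overlap.

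Among the 22 genes that rose relative to all genes, the fold ranged from 1.15 to 1.64 (log2 0.20 to 0.71), and Eif2ak3 was the one whose groups overlapped in CPM. Thus 21 of 32 had every dKO library above every WT library, where 12.6% of all genes did (9.74% had every dKO library below), and per spike-in count 30 of 32 did, where 48.4% of all genes did (0.134% below). With all libraries, the ERSE did not divide the genes that passed from those that did not. Of the 10 genes with the element, 7 rose relative to all genes and the median log2 fold change was 0.37. Of the 16 genes with a window but no exact match to the ERSE, 12 rose and the median was 0.25. Herpud1 and Dnajb11, which carry the ERSE-II, are counted among these 16, and both rose. Ero1lb, Syvn1 and Derl3 carry the ERSE printed above and did not pass.

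Fewer of these calls held when the 3 WT libraries with more reads outside genes were left out. Over all genes, the share that rose relative to all genes also went from 13.7% to 2.33%. Because only WT 1 and WT 5 then remain, having fewer WT libraries and a trait of WT 2, 3 and 4 cannot be told apart. In CPM, WT 1 and WT 5 were both above WT 2, 3 and 4 for 20 of the 32 genes, an order seen in 20.8% of all genes. Compared with WT 1 and WT 5 alone, the 22 genes had relative log2 fold changes of 0.14 to 0.50 and edgeR adjusted p-values of 0.0280 to 0.355, and 4 of them passed: Hspa5 (log2 0.50), Creld2 (log2 0.45), Hsp90b1 (log2 0.39) and Hyou1 (log2 0.35). Of all 32 genes, 23 had every dKO library above both WT libraries, where 17.5% of all genes did. The 22 were chosen by their call on libraries that include these, and all 22 were among the 23. The median over the 32 genes was 0.22 relative to all genes, against -0.01 for all genes, and by role it was 0.37 for chaperones, 0.22 for oxidative folding, 0.20 for translocation, 0.15 for degradation and 0.10 for sensors. Per spike-in count the median was 0.66, against 0.43 for all genes. Ern1 then passed and Ero1lb did not.

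**Figure D4:**
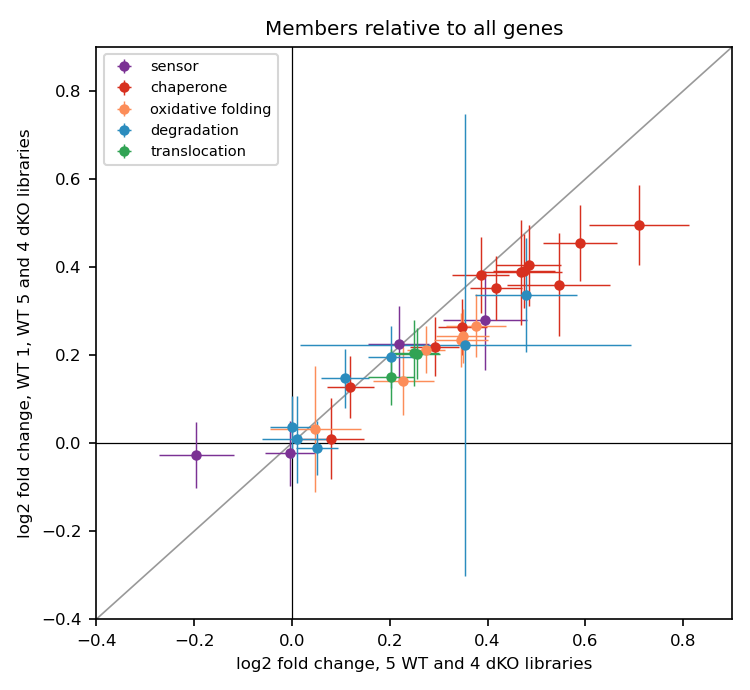
Relative log2 fold change of each of the 32 genes with all 5 WT libraries (horizontal axis) and with WT 1 and WT 5 only (vertical axis). Most genes with a positive value lie below the line of equality, the median moves from 0.28 to 0.22, and Hspa5 is the highest on both axes.

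The genes around the 32 were read from 7 further lists of ER pathway genes, 118 genes in all, none of them among the 32. Relative to all genes 57 of the 118 rose and 2 fell, where 13.7% of all genes rose and 12% fell, with a median log2 fold change of 0.13. Per spike-in count 112 rose, where 61.1% of all genes did. Without WT 2, 3 and 4, 11 rose relative to all genes, where 2.33% of all genes did, and none fell. These lists too were chosen with earlier results of these data known, so nothing is read from the distance to those shares. Of the other translocon, signal recognition and signal peptidase genes, 9 of 20 rose and none fell. Tram1, a membrane protein next to the channel, rose from 83.5 ± 7.0 to 112 ± 5.66 CPM (log2 0.43, SE 0.06, edgeR adjusted p = 0.000648). Ssr3, the TRAP subunit that partners Ssr1, rose from 289.7 ± 6.56 to 355 ± 24.9 CPM, and Spcs2, of the signal peptidase, from 104 ± 6.09 to 123 ± 6.19 CPM. Of the N-glycosylation genes 7 of 16 rose and none fell, and the smallest adjusted p-values were those of the oligosaccharyltransferase subunits Rpn1 (160.2 ± 5.59 to 192 ± 5.73 CPM), Magt1 (67.9 ± 3.79 to 93.1 ± 9.92 CPM) and Stt3a (104 ± 4.05 to 135 ± 12 CPM).

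Of the other ER oxidoreductases 10 of 18 rose and 1 fell. Txndc5, a thioredoxin-domain relative of the disulfide isomerases, was at 70.7 to 81.4 CPM in WT and 121 to 139 CPM in dKO. It rose 1.70-fold (log2 0.76, SE 0.05, edgeR adjusted p = 9.66e-06), a larger fold than that of any of the 32. Gpx8, an ER peroxidase, rose from 26.0 ± 1.17 to 35.8 ± 2.09 CPM, and Dnajc10, a reductase that prepares substrates for degradation, from 133 ± 4.82 to 151 ± 3.56 CPM. The gene that fell was Qsox1, a secretory-pathway sulfhydryl oxidase, from 34.5 ± 0.908 to 29.6 ± 1.07 CPM (log2 -0.22, SE 0.05, edgeR adjusted p = 0.00632). It was named after its value was seen. In the list of other ER-associated degradation genes 5 of 23 rose and 1 fell, with a median relative log2 fold change of 0.06. Ubxn4 rose from 106 ± 2.90 to 123 ± 7.18 CPM and H47, the older symbol of the gene for the VCP-binding protein VIMP, from 20.9 ± 1.20 to 27.4 ± 3.88 CPM. Os9, a lectin of the HRD1 complex named after its value was seen, fell from 106 ± 6.32 to 90.4 ± 5.40 CPM (log2 -0.23, SE 0.05, edgeR adjusted p = 0.00946).

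Outputs of the PERK-ATF4 branch, which PERK favours through ATF4, held the highest median of the 7 lists. Of these 8 genes 7 rose relative to all genes, with a median log2 fold change of 1.28, and Ppp1r15a, a phosphatase subunit that reverses eIF2 alpha phosphorylation, did not pass (log2 0.18, edgeR adjusted p = 0.227). Atf3, a stress-induced transcription factor, was at 1.147, 0.910, 0.983, 0.832 and 1.33 CPM in WT and at 8.56, 4.04, 5.85 and 14 CPM in dKO (log2 2.94, SE 0.33, edgeR adjusted p = 0.000201). Sesn2, which restrains mTORC1 signalling, was at 7.49, 7.17, 7.14, 6.08 and 7.22 CPM in WT and at 22.9, 13.3, 18.3 and 30.5 CPM in dKO (log2 1.59, SE 0.19, edgeR adjusted p = 0.000302). Asns, asparagine synthetase, was at 41.3, 30.8, 30.7, 30.2 and 30.1 CPM in WT and at 83.6, 51.2, 71.6 and 96.8 CPM in dKO (log2 1.22, SE 0.16, edgeR adjusted p = 0.00044). In each of these 3 genes dKO 4 was the highest library and dKO 2 the lowest of the dKO group. These genes also respond to kinases other than PERK, such as the amino acid sensor GCN2, and the counts do not separate the inputs. Without WT 2, 3 and 4, 3 of the 8 genes passed, Atf3, Sesn2 and Asns, and the list's median was 0.86. The calls of Atf4, Ddit3, Trib3 and Chac1 were lost (edgeR adjusted p = 0.0566, 0.227, 0.383 and 0.053).

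The other sensors and regulators held a median of 0.01, with 4 of 13 higher and none lower. Eif2s1, which encodes eIF2 alpha, the substrate of PERK, rose from 117 ± 2.60 to 143 ± 8.87 CPM (log2 0.30, SE 0.04, edgeR adjusted p = 0.000741). Creb3 rose from 27.6 ± 1.02 to 51.2 ± 12.6 CPM (log2 0.89, SE 0.13, edgeR adjusted p = 0.00075) and Creb3l2 from 11.2 ± 1.30 to 16.7 ± 2.42 CPM (log2 0.57, SE 0.11, edgeR adjusted p = 0.00337), both encoding membrane-bound factors related to ATF6. Of the genes for ER to Golgi transport and retrieval, 15 of 20 rose and none fell, with a median of 0.20. Kdelr2, a receptor that returns KDEL-bearing proteins such as BiP to the ER, rose from 75.4 ± 3.60 to 99.5 ± 5.98 CPM (log2 0.40, SE 0.05, edgeR adjusted p = 0.000334). Lman1, a cargo lectin, rose from 70.5 ± 4.10 to 90.3 ± 3.42 CPM and Surf4, a cargo receptor, from 126 ± 5.85 to 155 ± 8.80 CPM.

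**Figure D5:**
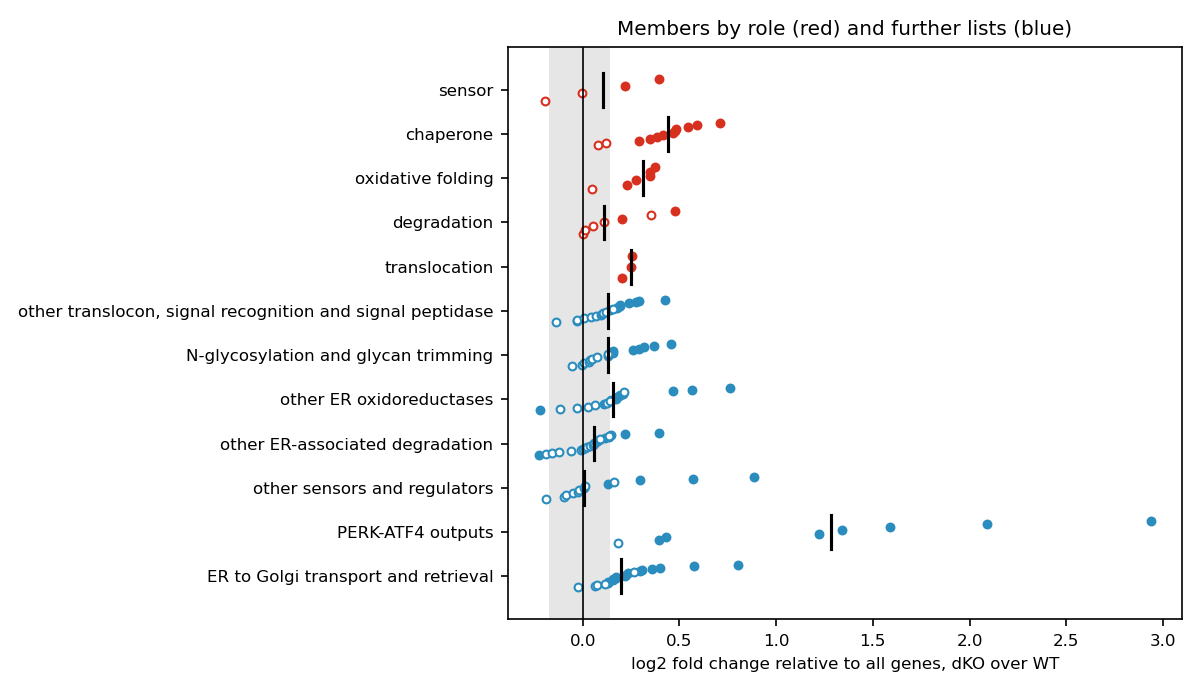
Relative log2 fold change of every gene of the 5 roles of the 32 genes (red) and of the 7 further lists (blue), with a grey band between the quartiles of all genes tested. The PERK-ATF4 outputs reach highest, with a median of 1.28, and the chaperones follow with a median of 0.44.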

How the data were processed

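Telencephalon RNA of 5 WT and 4 dKO embryos was sequenced as stranded total RNA libraries. The deposited values are read counts per gene, made with STAR, HTSeq and mm9 per the submitters' processing notes. Their versions, the annotation and the strand setting were not given in the sources used here. Reads set aside as ambiguous between genes made up 0.30% to 0.36% per library. Without the annotation and strand setting, it is not known which reads in overlapping exons were set aside in this way. Of the members, 8 overlap a gene other than a miRNA, by at most 10.3% of exon length with any single gene. Rows naming no gene held on average 61.3% of reads in WT and 58.1% in dKO and were left out.

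Counts were fitted with edgeR 4.0.16 (quasi-likelihood, R 4.3.3) over 17182 genes kept by filterByExpr, with the library size set to the total spike-in count, or with TMM over genes for the fit relative to all genes, and with Benjamini-Hochberg adjustment at 0.05. Folds and log2 fold changes are fitted, and CPM are counts per 1000000 TMM-scaled gene counts; shares of gene counts are not scaled. One telencephalon marker is not reported here. Both fits were run on simulated data with known folds. Bias in the fold was checked for both, and the calls were checked only for the fit relative to all genes. Alternatives were DESeq2 1.42.0, limma 3.58.1 (voom), other scalings and filters, a replicate block and left-out libraries. Promoter windows came from RefSeq (GRCm38.p6), exon lengths and overlaps from GENCODE on GRCm38, another build than the counts, used for no coordinates of the counts. Members, roles and lists were chosen with earlier results of these data known. All members are named, as are the 3 genes of each further list with the smallest adjusted p relative to all genes. Replicates are embryos per the labels. Derl3 had as few as 4 counts in a library, and every other member had 115 or more. Counting intervals were not used.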

Additional observations from a re-analysis of the deposited data

Results flagged for a closer look

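In 128 groups of 4 or 5 library values examined for the 32 genes, 8 held a library far from the others of its group, where chance alone would mark about 1 group in 20. All 8 were in the dKO group. In CPM, Creld2 was low in dKO 2 (33.7 against 39.1 to 39.9) and Derl3 was high in dKO 3 (1.17 against 0.466 to 0.506). Per 1000 spike-in counts, Derl3 was again high in dKO 3 (0.0920 against 0.0326 to 0.0426). On that scale Hspa13 (9.13 against 8.20 to 8.27), Canx (67.1 against 57.3 to 58.6) and Sel1l (13.96 against 12.6 to 12.8) were high in dKO 4. Ern1 (1.74 against 2.13 to 2.18) and Derl1 (4.775 against 5.25 to 5.34) were low in dKO 1.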

How the results depend on the processing

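Per spike-in count, 30 to 32 of the 32 genes rose under every alternative run and none fell. With a mean count of at least 50, Derl3 was not tested, which left 31 genes. Relative to all genes 22 rose and none fell with DESeq2, limma-voom, no filter on low counts, a mean count of at least 50 and 2 other scalings. The count was 4 without WT 2, 3 and 4, and leaving out 1 library at a time gave 20 to 24 higher and 0 to 1 lower. The 1 was Ern1 without WT 5. Over all genes, 2355 rose and 2067 fell relative to all genes, against 407 and 170 without WT 2, 3 and 4, and 120 fell per spike-in count, against 79 with DESeq2, 187 without a filter, 45 without WT 2, 3 and 4 and 66 to 205 with 1 library left out. The causes were not tested.

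With the replicate number as a block, 31 of the 32 genes rose per spike-in count and none fell, and relative to all genes 21 rose and 1 fell, which was Ern1 (log2 -0.24, edgeR adjusted p = 0.0406), while Eif2ak3 did not pass (edgeR adjusted p = 0.0638). Derl2 was then at log2 -0.014. The numbers do not pair the samples: deviations of libraries with the same number correlated at -0.265 to 0.142 over 4 pairs, and 0 of the 4 dKO libraries correlated best with the WT library of its own number.

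Relative log2 fold changes changed sign for 6 genes, none of which passed. For 5 of them the value with all libraries was near 0, and for Derl3 it was 0.35 and turned without dKO 3. With 1 library left out in turn, they ranged from -0.033 to 0.034 for Atf6, from -0.050 to 0.097 for Ero1lb, from -0.052 to 0.057 for Syvn1, from -0.033 to 0.029 for Derl2 and from -0.10 to 0.53 for Derl3. Derl1 was at -0.011 without WT 2, 3 and 4. Derl2 was at -0.011 with a mean count of at least 50, at -0.00051 with RLE scaling and at -0.015 with upper quartile scaling, where Syvn1 was at -0.0035.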

Other observations

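Libraries of a group were ordered as follows over the 32 genes. In CPM, dKO 1 was the highest dKO library for 22 of them and dKO 2 the lowest for 23, where the same held for 25.6% and 28.3% of all genes. Per 1000 spike-in counts, dKO 4 was the highest dKO library for 24 genes (41.3% of all genes), WT 5 the highest WT library for 26 (33% of all genes) and WT 2 the lowest for 28 (62.8% of all genes). In the opposite direction to most of the set, Ern1, Sel1l and Derl2 had WT 1 and WT 5 both below WT 2, 3 and 4 in CPM, an order seen in 21.9% of all genes.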
